A study of Mus musculus with 12 samples.

Results

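The cytosolic ribosomal protein genes are the nuclear genes for the protein part of the ribosome that works in the cytoplasm. They were taken by symbol from the protein-coding genes, as Rpl or Rps followed by a digit together with Rplp0, Rplp1, Rplp2, Rpsa and Fau. The 5 near paralogues Rpl3l, Rpl7l1, Rpl10l, Rpl22l1 and Rpl39l, ribosomal S6 kinases and names ending in -ps were left out. This gave 81 genes of the 38481 with a listed transcript, 47 of the large subunit and 34 of the small subunit. The rule works by symbol and biotype and takes no measured value, but it was set with earlier results of these data known. The cells were C2C12, an established line of mouse muscle precursor cells, and total RNA was sequenced from 12 libraries in 4 groups of 3. One group had an siRNA against Renilla Luciferase (here siLuc), a gene mouse cells do not carry, for 3 days and then ethanol for 12 hours. A second had siLuc and then rapamycin at 20 nM for 12 hours. The other two had an siRNA against Crebl2 (here siCrebl2), which encodes a relative of the transcription factor CREB, for 3 days, followed by ethanol or by rapamycin in the same way. The labels name a single Crebl2 siRNA (Crebl2 siRNA 1), so an effect of that sequence on other genes cannot be told apart from that of Crebl2 loss. All 12 libraries carried an siRNA and all came from the same cell line. The design asks whether loss of Crebl2 alters the response to rapamycin, and for these genes also whether the large and the small subunit moved together.

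As background, a ribosome is built from a small subunit, which reads the mRNA, and a large subunit, which joins the amino acids, and each ribosomal protein is needed in about equal number. Most mRNAs of ribosomal proteins in mammals are TOP mRNAs, which begin with a cytosine followed by a run of pyrimidines (5′ terminal oligopyrimidine). Translation of TOP mRNAs depends on the mTORC1 kinase, partly through the RNA-binding protein Larp1, and rapamycin is a partial inhibitor of that kinase. Counts of RNA fragments show how much mRNA is present and say nothing of how much of it is translated. Muscle growth depends on ribosome number, and mTORC1 is a main regulator of both.

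The start of the mRNA is shown for 7 members, because the TOP tract is what these genes are known to share. These 7 were picked for a tract at the annotated start or for a long pyrimidine run near it, so they do not stand for all members. Sequences are from RefSeq on GRCm38.p6, each 60 bases long, 5′ to 3′ on the strand of the gene, and the annotated start is base 31. A promoter entry was found for 61 of the 81 members. Capitals in the first 4 sequences mark the pyrimidines from the annotated start onwards. In each of these the run also reaches before the start, and that part is in small letters. In the last 3, capitals mark the longest pyrimidine run between 10 bases before the start and 50 after it. The run of Rpl7a reaches further before that window. Rpl14 lies at chr9:120571487-120571546 on the plus strand, Rpl35 at chr2:39005102-39005161 on the minus strand, Rps21 at chr2:180257349-180257408 on the plus strand and Rps6 at chr4:86857338-86857397 on the minus strand. Rpl11 lies at chr4:136053364-136053423 on the minus strand, Rpl27a at chr7:109519165-109519224 on the plus strand and Rpl7a at chr2:26910777-26910836 on the plus strand.
Rpl14: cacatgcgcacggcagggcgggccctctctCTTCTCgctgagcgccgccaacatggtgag
Rpl35: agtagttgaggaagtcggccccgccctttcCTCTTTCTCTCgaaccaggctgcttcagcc
Rps21: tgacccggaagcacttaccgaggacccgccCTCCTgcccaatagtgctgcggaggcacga
Rps6: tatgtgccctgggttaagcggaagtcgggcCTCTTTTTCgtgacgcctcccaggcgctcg
Rpl11: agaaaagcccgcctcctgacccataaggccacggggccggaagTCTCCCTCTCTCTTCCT
Rpl27a: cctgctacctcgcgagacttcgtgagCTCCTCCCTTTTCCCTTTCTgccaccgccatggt
Rpl7a: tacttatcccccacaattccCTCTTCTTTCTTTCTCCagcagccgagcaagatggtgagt

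A C at the annotated start followed by a pyrimidine run of at least 5 bases in all was present in 14 of the 61 members (22.95%), against 2.51% of 32544 RefSeq promoters. The sequences shown are from 28 members with at least 90% countable bases (defined below) and a mean count of at least 1000. Of these 28, 4 had it (14.29%), the first 4 shown. A run of at least 8 pyrimidines between base -10 and base 50 was present in 41 members (67.21%), against 21% of all promoters. The runs lay on the sense strand: CTTTCC occurred in this window on the sense strand in 26.23% of the members and on the antisense strand in none of the 61, against 2.6% and 2.88% of all promoters. CTCTTT occurred on the sense strand in 27.87% and on the antisense strand in 1.64%, against 2.06% and 2.19%. These words lie within pyrimidine runs and overlap each other. Over the whole 300 bases and on both strands, CCGGAAG, the letters of an ETS-type site, occurred in 39.34% of the members against 8.91% of all promoters, and GGCGGG, the letters of a GC box, in 63.93% against 35.57%. TGACGTCA, the full cyclic AMP response element that CREB binds, occurred in 6 members (9.84%) against 1.8% of all promoters, and its shorter part TGACG in 50.82% against 20.91%. CACGTG, an E-box, was present in 8.2% against 7.17% and TATAAA in 8.2% against 13.57%. These are matches of letters in a window around an annotated start, not measured start sites or binding.

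The deposited counts hold few of the reads that overlap several listed transcripts, so the members were split by the share of their exonic bases covered by 1 listed transcript and no other, here called countable bases. At least 90% of the bases were countable in 40 members (24 large, 16 small), which held 98.68% of all member counts. The other 41 held 1.32%. Of the 40, Rps27rt, an intronless copy of Rps27, had 441 reads in all. The remaining 39 had every base countable and mean levels from 304 CPM (Rpl23a) to 5925 CPM (Rplp0). CPM is the count rate of a gene relative to the TMM-scaled library size. They lie on 16 chromosomes. Ribosomal protein genes have many processed pseudogenes, and a median of 60.0% of the 50-base words of these 39 transcripts also occurred in transcripts of other genes, from 7.6% in Rps20 to 95.1% in Rpl35. The rule for reads that map to several places was not given in the sources used here, so part of a member's reads could have been counted elsewhere or lost. The 9 listed pseudogenes with -ps names held reads equal to 0.171% of the member counts.

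Library totals ranged from 33389274 to 42874879 counts assigned to a gene, and 13247 genes passed the filter and were tested. The targeted gene Crebl2 was at 23.8, 25.3 and 26.2 CPM with siLuc in ethanol and at 4.87, 7.41 and 6.02 CPM with siCrebl2, a fall of 75.8%. In rapamycin it was at 39.96, 36.4 and 36.3 CPM with siLuc and at 10.7, 8.97 and 9.49 CPM with siCrebl2. All 8 myoblast markers were tested, and their summed level was 4189 to 4528 CPM with siLuc in ethanol, 3073 to 3396 CPM with siLuc in rapamycin, 3671 to 4224 CPM with siCrebl2 in ethanol and 3445 to 3607 CPM with siCrebl2 in rapamycin. Of the 13 markers of other cell types, 10 were not tested and had 0 (Ptprc, Alb, Ttr and Hbb-bs) to 61 reads (Cdh1) in all 12 libraries. The other 3 were low but moved in part with the conditions. Hba-a1, an erythroid globin, was at 0.77 to 0.95 CPM with siLuc in ethanol and 0.25 to 0.33 CPM in rapamycin, next to 4.29 to 4.59 and 1.00 to 1.13 CPM with siCrebl2, and was called in all 4 comparisons. The fibroblast marker Pdgfra, at 1.21 to 2.26 CPM, rose with rapamycin under either siRNA (0.60 ± 0.14 and 0.50 ± 0.14), and the immune marker Cd68, at 0.28 to 0.62 CPM, was not called. The differentiation factor Myog moved with both factors, from 217, 215 and 177 CPM with siLuc in ethanol to 79.6, 67.7 and 76.3 CPM in rapamycin. Under siCrebl2 Myog was at 15.9, 20.1 and 24.3 CPM in ethanol and 8.87, 6.53 and 11.5 CPM in rapamycin. Of the 8 markers 1 rose and 3 fell with rapamycin under siLuc, and 0 rose and 3 fell with siCrebl2 in ethanol. With siCrebl2 in rapamycin 3 rose (Cdh15, Itga7 and Ncam1) and 2 fell, and with rapamycin under siCrebl2 2 rose and 3 fell. Over all tested genes 19.5% rose and 21.6% fell with rapamycin under siLuc, and 21.4% and 17% with siCrebl2 in ethanol. The shares were 16.3% and 16.8% with siCrebl2 in rapamycin, and 19.7% and 25.6% with rapamycin under siCrebl2. The part of these marker changes in the results was not tested.

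Together the members took a larger share of the counts in rapamycin and with siCrebl2. They took 5.96%, 5.84% and 5.75% of the counts in the 3 libraries with siLuc in ethanol and 7.55%, 7.73% and 7.35% with siLuc in rapamycin. With siCrebl2 the share was 6.56%, 6.38% and 6.67% in ethanol and 8.68%, 9.37% and 8.98% in rapamycin. The 4 groups did not overlap, and the order, from low to high, was siLuc in ethanol, siCrebl2 in ethanol, siLuc in rapamycin, siCrebl2 in rapamycin. Shares and CPM are relative to the rest of the counted RNA. More ribosomal protein mRNA per cell and less of the other RNA cannot be told apart in them, nor can a change in the number of cells.

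Both subunits were higher by nearly the same factor. Summed over the large-subunit genes, the mean share was 3.62% ± 0.07 (SD, n = 3) with siLuc in ethanol, 4.74% ± 0.13 in rapamycin, 4.05% ± 0.10 with siCrebl2 in ethanol and 5.63% ± 0.23 in rapamycin. The small-subunit genes followed with 2.22% ± 0.04, 2.80% ± 0.06, 2.49% ± 0.05 and 3.38% ± 0.12 in the same order. After scaling, the summed CPM relative to siLuc in ethanol was 1.35-fold for the large and 1.30-fold for the small subunit in rapamycin. It was 1.19-fold for each subunit with siCrebl2, and 1.68-fold and 1.64-fold with both. Before scaling, the mean share of all members relative to siLuc in ethanol was lower, at 1.29-fold in rapamycin, 1.12-fold with siCrebl2 and 1.54-fold with both. The size of the siCrebl2 change thus depends in part on the scaling.

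The ratio of large to small subunit counts was 1.640, 1.617 and 1.632 with siLuc in ethanol and 1.618, 1.625 and 1.638 with siCrebl2 in ethanol. In rapamycin it was 1.687, 1.710 and 1.689 with siLuc and 1.652, 1.669 and 1.685 with siCrebl2. The rapamycin libraries were above the ethanol libraries with each siRNA, and the siRNA groups overlapped in ethanol but not in rapamycin, where siCrebl2 was lower. The mean ratio was 1.63 ± 0.01 (SD, n = 3) in ethanol with siLuc and 1.70 ± 0.01 in rapamycin, a shift of a few percent that no test was applied to, since the members were chosen as a list. The summed ratio is weighted towards the most abundant genes. With equal weight for the 39 countable members, an alternative added after the data were seen, the ratio of geometric means was 0.951 in ethanol and 0.984 in rapamycin with siLuc. With siCrebl2 it was 0.950 and 0.968, and there the ethanol libraries (0.942 to 0.959) overlapped the rapamycin libraries (0.947 to 0.983). On that measure the siRNA groups also overlapped in rapamycin, with siLuc at 0.975 to 1.001.

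**Figure D1:**
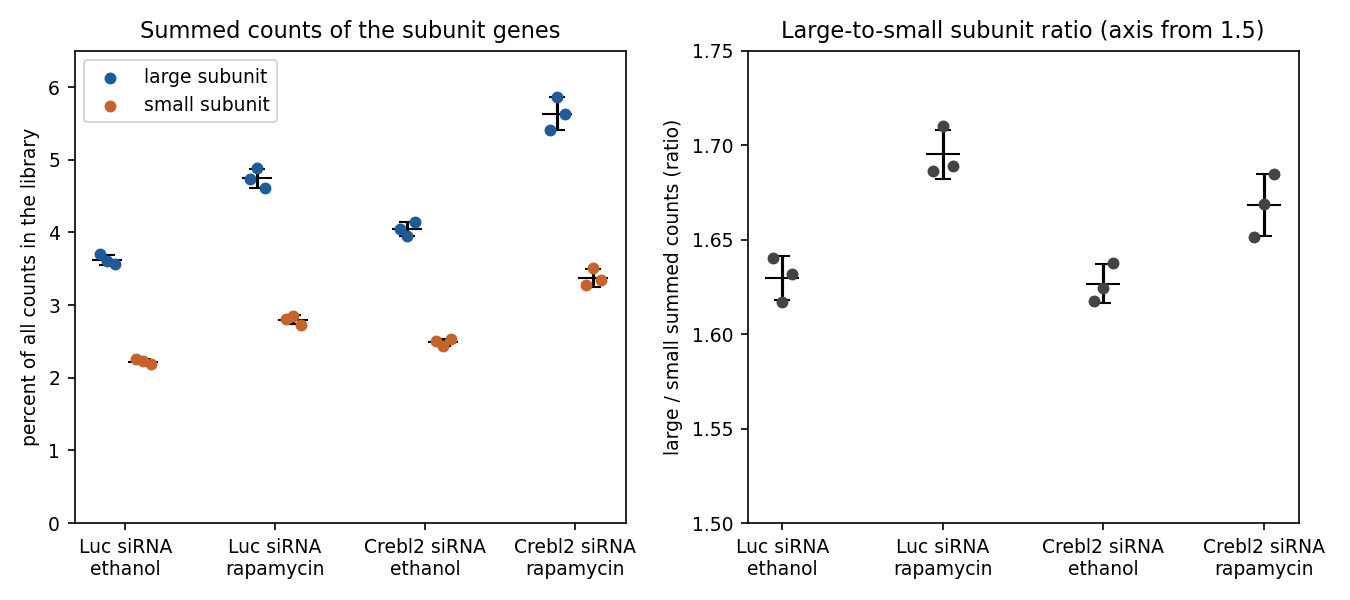
Left, percent of each library's counts taken by the 47 large-subunit and 34 small-subunit genes; right, the ratio of the large to the small sum, on an axis that starts at 1.5. Points are the 12 libraries, short lines the group means and bars the SD (n = 3); both subunits are lowest with siLuc in ethanol and highest with siCrebl2 in rapamycin, while the ratio stays between 1.617 and 1.710.

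Levels differed more between members than between conditions. Per kilobase of countable exon, the mean level over the 4 groups ran in the large subunit from 379 CPM for Rpl35 to 4363 CPM for Rplp0, an 11.5-fold range around a median of 1762 CPM. In the small subunit it ran from 586 CPM for Rps20 to 2970 CPM for Rps3a1, a 5.07-fold range around a median of 2244 CPM. After Rplp0, the scaffold of the stalk that calls elongation factors to the ribosome, came its partner Rplp1 (3719 CPM per kilobase) and Rpl8 (3094), a protein at the catalytic centre. In the small subunit Rps6 (2945), the substrate of the S6 kinases, followed Rps3a1. The length used is that of the countable bases of the gene's listed transcripts, 3706 for Rps20 against 499 for Rplp1. The value therefore depends on the annotation and on which transcripts are listed.

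**Figure D2:**
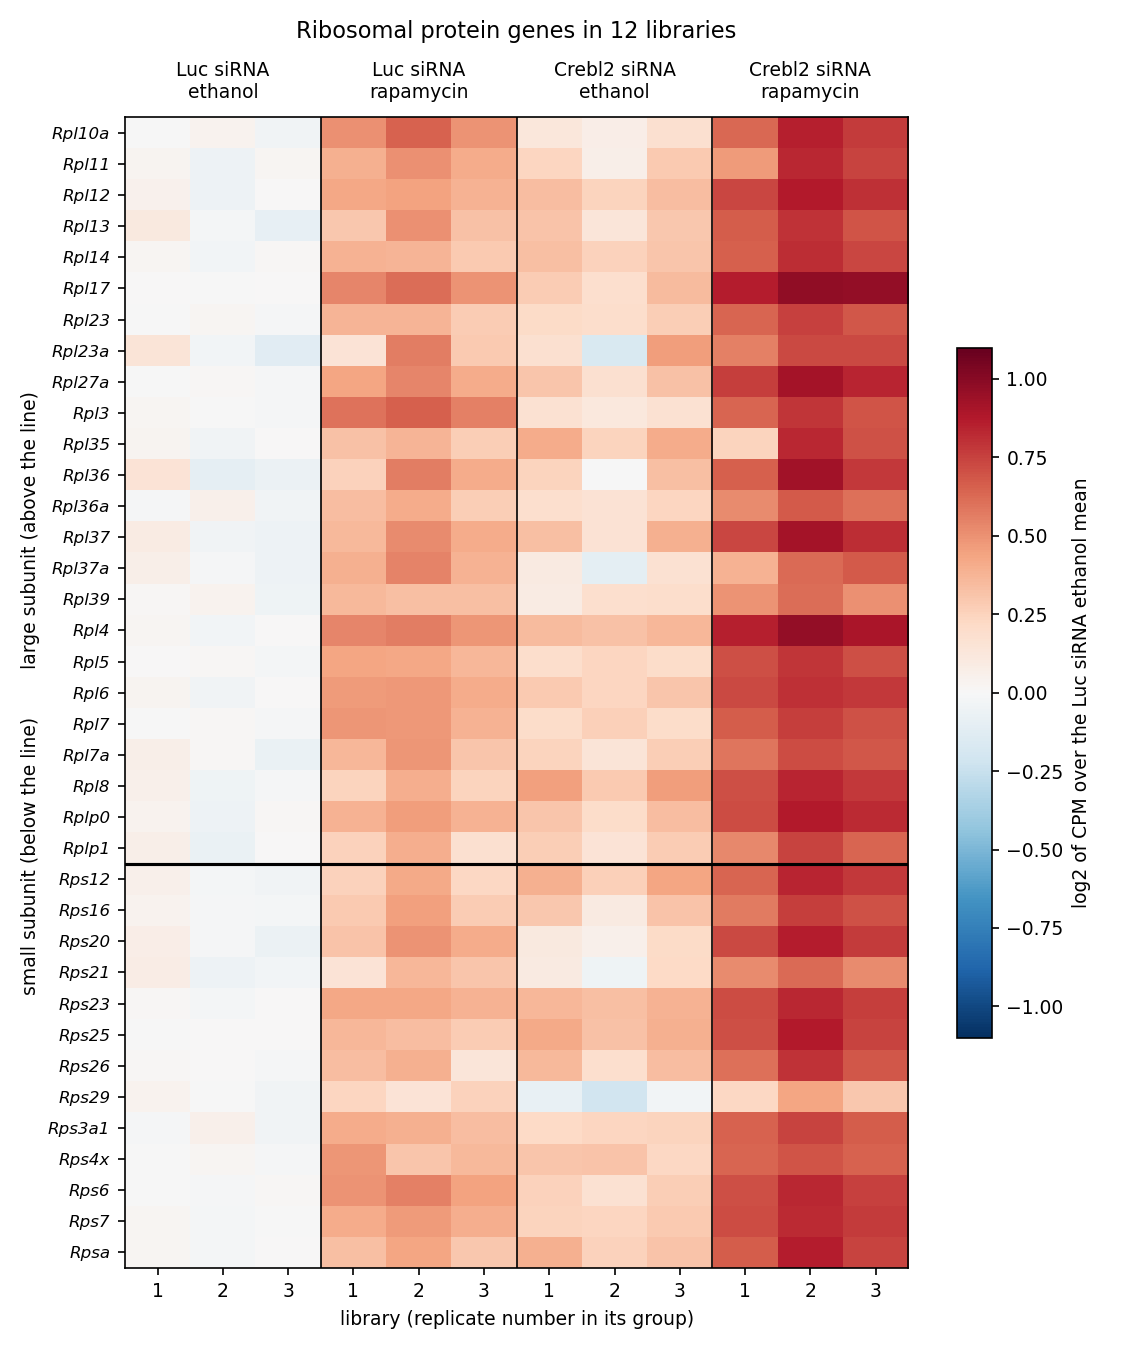
Level of 37 of the 39 countable members in the 12 libraries, as log2 of CPM over the mean of the 3 libraries with siLuc in ethanol (red, above that mean; blue, below it). Nearly every row darkens from the first group through rapamycin or siCrebl2 alone to both together; Rps29 is below the first group's mean in the 3 libraries with siCrebl2 in ethanol.

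Rapamycin raised nearly all countable members in cells with siLuc, in both subunits. A gene was called at an edgeR quasi-likelihood adjusted p under 0.05 over all 13247 genes, and 46 of the 68 tested members were called higher and 3 lower, where 19.5% of all tested genes were called higher and 21.6% lower. All 24 countable large-subunit members rose, with a median log2 fold change of 0.41, and 15 of 16 countable small-subunit members rose, with a median of 0.36, where the median of all tested genes was 0.02. In 39 of the 40 all 3 rapamycin libraries lay above all 3 ethanol libraries, which 24.8% of all tested genes did. The exception was Rps27rt, at a log2 fold change of 0.08. The replicates are not stated to come from separate cultures, so a p-value here sets a difference against library-to-library spread that may be purely technical.

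In the large subunit the stalk scaffold Rplp0 was at 4610, 4308 and 4522 CPM in ethanol and at 5856, 6177 and 5850 CPM in rapamycin. The groups did not overlap, and the log2 fold change was 0.41 ± 0.05 (standard error; edgeR adjusted p = 7.4e-06). Rplp1, which binds Rplp0 as a pair with Rplp2, rose from 1569, 1423 and 1505 CPM to 1787, 1976 and 1694 CPM. Rpl5 and Rpl11, which join the 5S RNA before entering the ribosome and can also bind Mdm2, rose side by side. Rpl5 was at 1860, 1877 and 1834 CPM in ethanol and 2509, 2499 and 2389 CPM in rapamycin, and Rpl11 at 767, 721 and 763 against 985, 1064 and 994 CPM. Their log2 fold changes were 0.41 ± 0.04 and 0.43 ± 0.08, within each other's error.

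The highest rise in the large subunit was that of Rpl3, which reaches towards the catalytic centre. It was at 3003, 2941 and 2920 CPM in ethanol and at 4476, 4670 and 4351 CPM in rapamycin. That is a log2 fold change of 0.61 ± 0.04 (edgeR adjusted p = 2.9e-08). Next came Rpl10a, the protein of the mobile stalk where spent tRNA leaves, at 1322, 1365 and 1290 against 1877, 2075 and 1870 CPM. Rpl17, at the wall of the exit tunnel, matched it with 1221, 1211 and 1218 against 1767, 1857 and 1715 CPM, and both changed by 0.55 on the log2 scale. Rpl4, which also lines the tunnel, went from 2325, 2244 and 2293 to 3321, 3386 and 3196 CPM (0.53 ± 0.04). The smallest rises were those of Rplp1 (0.28 ± 0.07) and Rpl8 (0.30 ± 0.06), the latter from 2082, 1932 and 1982 to 2373, 2641 and 2369 CPM. Rpl23a, the docking site for targeting factors at the tunnel exit, had the least stable call of the named countable members. It was at 268, 239 and 223 CPM in ethanol and 270, 359 and 297 CPM in rapamycin, a log2 fold change of 0.34 ± 0.13 (edgeR adjusted p = 0.042). Its call was lost in 8 of the 12 fits that left out 1 library, with the lowest value, 0.19, without replicate 2 of siLuc in rapamycin. It was also lost in DESeq2 (adjusted p = 0.097), with the replicate block (adjusted p = 0.068) and with scaling from the genes that are not members (adjusted p = 0.055). The other 14 countable large-subunit members had log2 fold changes from 0.32 (Rpl35) to 0.46 (Rpl27a).

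In the small subunit Rps6 was at 1953, 1940 and 1980 CPM in ethanol and at 2765, 2871 and 2659 CPM in rapamycin. The groups were far apart, and the log2 fold change of 0.50 ± 0.05 was the highest of the countable small-subunit members (edgeR adjusted p = 3e-07). Rpsa, also known as the laminin receptor precursor, rose from 3381, 3278 and 3335 to 4194, 4488 and 4090 CPM (0.35 ± 0.05). Rps23, a protein of the decoding centre, rose from 602, 590 and 599 to 800, 803 and 776 CPM, with the libraries of each group within a few percent of each other. Another 10 countable small-subunit members lay between 0.28 (Rps21) and 0.43 (Rps7), among them Rps12, Rps20 and Rps25. The smallest rise was that of Rps29, a small zinc-binding protein of the subunit's head. It was at 811, 785 and 769 CPM in ethanol and 929, 875 and 940 CPM in rapamycin. Its log2 fold change was 0.22 ± 0.06, and its call was lost without replicate 1 (0.17) or replicate 3 (0.17) of siLuc in rapamycin.

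Rapamycin raised the same classes of members in cells with siCrebl2, in libraries that the first rapamycin comparison does not share. Of the 68 tested members 46 were called higher and 4 lower, where 19.7% of all tested genes were called higher and 25.6% lower. Among the countable members 23 of 24 rose in the large subunit, with a median of 0.49, and 15 of 16 in the small subunit, with a median of 0.44, where the median of all tested genes was -0.01. In 38 of the 40 all 3 rapamycin libraries lay above all 3 ethanol libraries, which 24.3% of all tested genes did. Rplp0 went from 5526, 5145 and 5671 CPM in ethanol to 7353, 8192 and 7892 CPM in rapamycin, and Rps6 from 2332, 2200 and 2361 to 3198, 3472 and 3295 CPM. Neither pair of groups overlapped, and the log2 fold changes were 0.52 ± 0.05 and 0.53 ± 0.05. The highest values were those of Rpl17 (0.66 ± 0.05) and Rps20 (0.66 ± 0.06). Rps20, a protein of the subunit's head, was at 1819, 1758 and 1951 CPM in ethanol and 2792, 3078 and 2876 CPM in rapamycin. The countable members not called were Rps27rt and Rpl35. Rpl35, at the tunnel exit, was at 377, 335 and 377 CPM in ethanol and 336, 504 and 462 CPM in rapamycin, so replicate 1 lay within the ethanol range and the other two above it (0.26 ± 0.10, edgeR adjusted p = 0.053).

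**Figure D3:**
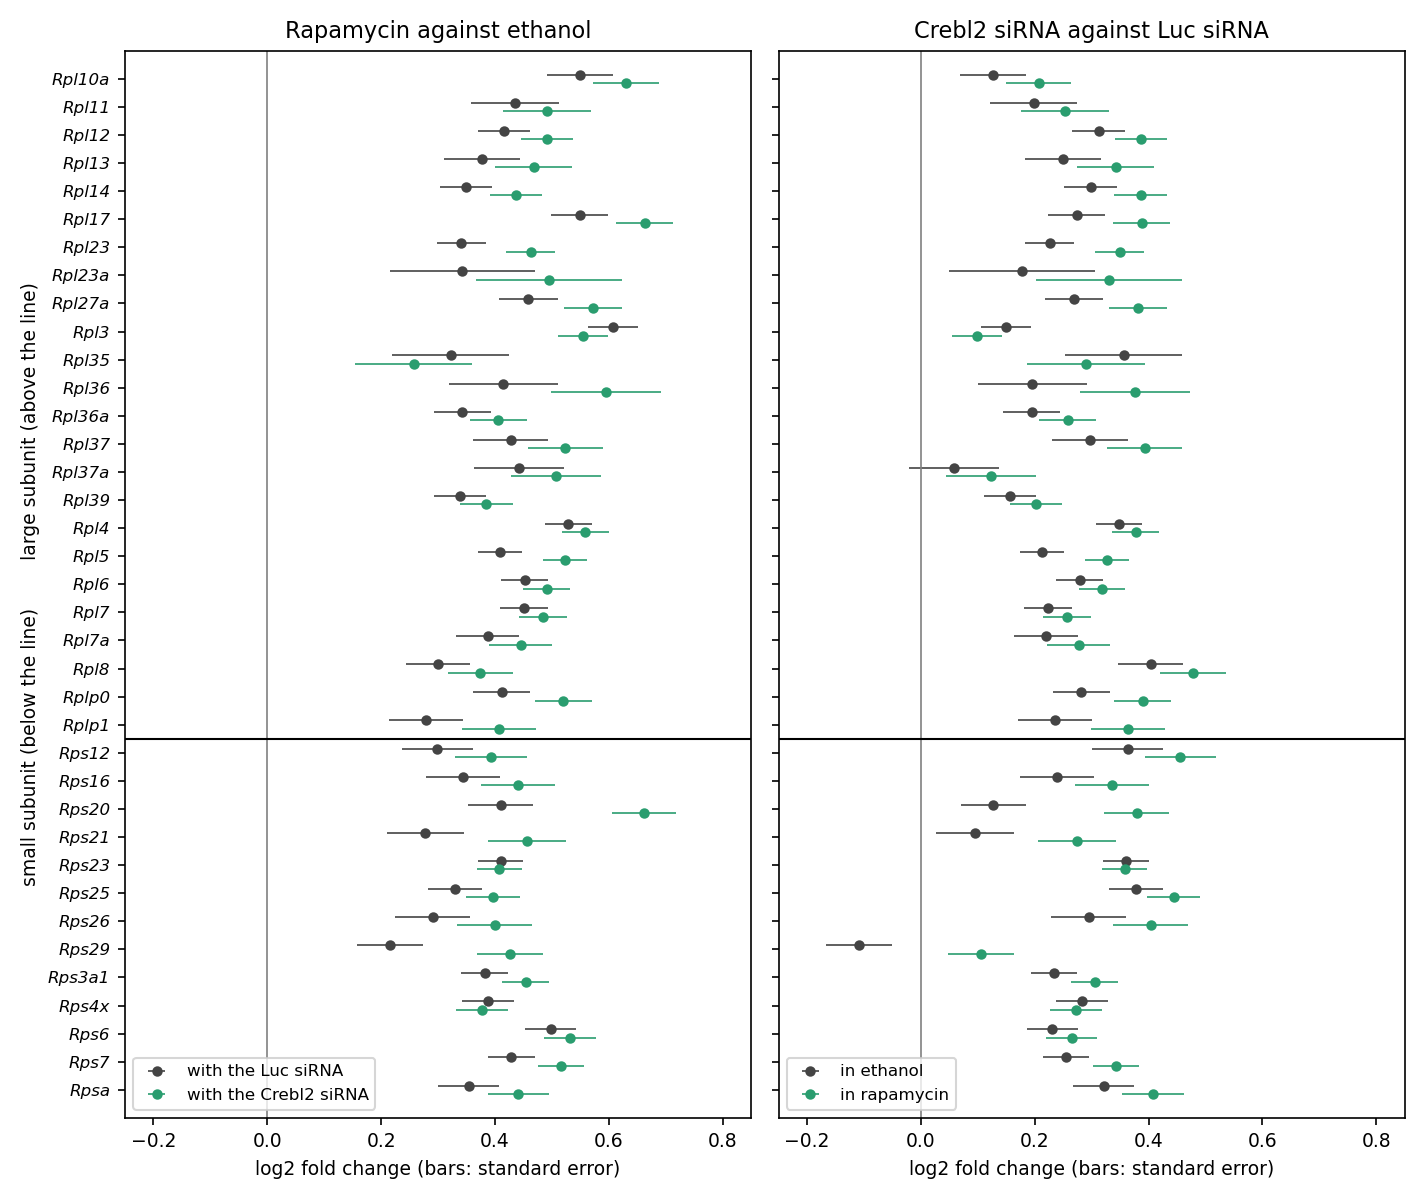
Log2 fold change with its standard error for 37 of the 39 countable members, large subunit above the line and small subunit below it. Left, rapamycin against ethanol with either siRNA; right, siCrebl2 against siLuc in ethanol or rapamycin. All points on the left are above 0, from 0.22 to 0.66; on the right Rps29 in ethanol is the single point below 0.

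The siRNA against Crebl2 raised most countable members in ethanol. Of the 68 tested members 40 were called higher and 0 lower, where 21.4% of all tested genes were called higher and 17% lower. No member was lower at an unadjusted edgeR p under 0.05 either (0 of 68), and DESeq2 called 0 lower, while without replicate 1 of siLuc in ethanol or replicate 2 of siCrebl2 in rapamycin 1 member was called lower. Among the countable members 19 of 24 rose in the large subunit (median log2 fold change 0.23) and 12 of 16 in the small subunit (median 0.25), where the median of all tested genes was 0.01. In 33 of the 40 all 3 siCrebl2 libraries lay above all 3 siLuc libraries, which 25.9% of all tested genes did. This comparison uses the same control libraries as the rapamycin comparison with siLuc, so the 2 sets of values are given side by side and no likeness is read from them.

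Rpl8 had the highest change of the countable members with siCrebl2, at 2740, 2445 and 2750 CPM against 2082, 1932 and 1982 CPM with siLuc in ethanol. The groups did not overlap, and the log2 fold change was 0.40 ± 0.06 (edgeR adjusted p = 5.4e-05). Rpl4 rose from 2325, 2244 and 2293 to 2918, 2865 and 2949 CPM (0.35 ± 0.04). Rpl35 rose from 291, 276 and 285 to 377, 335 and 377 CPM (0.36 ± 0.10). In the small subunit Rps25, which some viral and cellular mRNAs need for cap-independent initiation, from 709, 710 and 710 to 950, 886 and 931 CPM (0.38 ± 0.05), Rps12, from 994, 944 and 933 to 1253, 1146 and 1293 CPM (0.36 ± 0.06), and Rps23 (0.36 ± 0.04) led. Rpsa rose from 3381, 3278 and 3335 to 4362, 3972 and 4147 CPM (0.32 ± 0.05). Rps6 rose by 0.23 ± 0.05 and Rpl5 by 0.21 ± 0.04.

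The other 9 countable members did not pass the test in that comparison. Rpl37a, a small zinc-binding protein, was at 1058, 1005 and 977 CPM with siLuc and 1087, 938 and 1139 CPM with siCrebl2, so the groups overlapped (0.06 ± 0.08, edgeR adjusted p = 0.6). Rpl10a had a log2 fold change of 0.13 ± 0.06, Rpl36 of 0.20 ± 0.10, Rpl23a of 0.18 ± 0.13, Rps20 of 0.13 ± 0.06, Rps21 of 0.10 ± 0.07 and the low-count Rps27rt of -0.81 ± 0.38. Without replicate 2 of siCrebl2 in ethanol, Rpl36 (0.29), Rpl23a (0.33) and Rpl11 (0.26) were called, and without replicate 1 of siLuc in ethanol Rpl36 (0.28) was. Rpl11 missed the threshold at 0.20 ± 0.08 (edgeR adjusted p = 0.056) and was called by DESeq2 (adjusted p = 0.035) and without replicate 1 of siCrebl2 in rapamycin (0.17). It was also called in the fit of only the groups compared (0.17). Rpl36 (0.17), Rpl23a (0.15) and Rpl11 (0.17) were called without a count filter. Rpl3 was called with 0.15 ± 0.04, a call lost without replicate 1 of siLuc in rapamycin or replicate 3 of siCrebl2 in rapamycin (0.13 each), or without a count filter (0.12, adjusted p = 0.087). Rps29 lay the other way, at 744, 680 and 770 CPM with siCrebl2, where the highest library was just above the lowest of siLuc (-0.11 ± 0.06, edgeR adjusted p = 0.16). Without replicate 2 of siCrebl2 in rapamycin, Rps29 was called lower (-0.13).

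In rapamycin siCrebl2 raised most of the members. Of the 68 tested, 45 were called higher and 0 lower by edgeR, with 0 lower also at an unadjusted p under 0.05, and DESeq2 called 45 and 0, where 16.3% of all tested genes were called higher and 16.8% lower. Among the countable members 21 of 24 rose in the large subunit and 14 of 16 in the small subunit, with a median of 0.34 in each, where the median of all tested genes was -0.01. In 32 of the 40 the groups did not overlap and siCrebl2 was higher, which 22.9% of all tested genes showed. Rplp0 was at 5856, 6177 and 5850 CPM with siLuc and at 7353, 8192 and 7892 CPM with siCrebl2 (0.39 ± 0.05). Rpl8 was again the highest of the countable large-subunit members (0.48 ± 0.06), with 2373, 2641 and 2369 against 3275, 3577 and 3431 CPM. Rps12 (0.46 ± 0.06), Rps25 (0.44 ± 0.05) and Rpsa (0.41 ± 0.05) were the highest in the small subunit. Neither Rpl8 nor these 3 had overlapping groups.

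The countable members not called in rapamycin were Rpl3, Rpl23a, Rpl37a, Rps29 and Rps27rt. Rpl3 was at 4476, 4670 and 4351 CPM with siLuc and at 4602, 5093 and 4760 CPM with siCrebl2, and the groups overlapped (0.10 ± 0.04, edgeR adjusted p = 0.1). DESeq2 called Rpl3 higher (0.13, adjusted p = 0.024), as did the fits without replicate 2 of siLuc in rapamycin (0.16) or replicate 1 of siCrebl2 in rapamycin (0.16). It was also called in edgeR with RLE scaling (adjusted p = 0.039) and with scaling from the genes that are not members (adjusted p = 0.033). Rpl23a, at 0.33 ± 0.13 (edgeR adjusted p = 0.059), was called in 4 of the 12 fits without 1 library, with the highest value, 0.48, without replicate 2 of siLuc in rapamycin. Other edgeR settings called it too: RLE scaling (adjusted p = 0.039), scaling from the genes that are not members (0.034), no count filter (1.1e-09) and only the groups compared (0.012). Rpl37a had a log2 fold change of 0.12 ± 0.08 and Rps29 of 0.10 ± 0.06, and both were called without replicate 1 of siCrebl2 in rapamycin (0.24 and 0.18). Rpl37a was also called without a count filter (0.15). Rpl11 was called at 0.25 ± 0.08, and its call was lost without replicate 2 of siCrebl2 in rapamycin (0.20).

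The difference between the 2 rapamycin responses passed the edgeR test for no member. The interaction is the rapamycin change with siCrebl2 minus that with siLuc. Of 68 members edgeR called 0 in either direction and had 2 at an unadjusted p under 0.05 (Rps20 and Rps29), while DESeq2 called 1 (Rps20) and had 5 under that p. Over all tested genes edgeR called 1.2% and had 1892 of 13247 under an unadjusted p of 0.05, and DESeq2 called 391 and had 1449 under it, so the members' counts do not stand above those of all genes. Of the 40 countable members 36 had a value above 0, with a median of 0.09, against a median of -0.03 over all tested genes. No p belongs to that count, since the members share their libraries. Over all tested members the median was 0.06 in the large and 0.09 in the small subunit. Without replicate 1 of siCrebl2 in rapamycin these medians became 0.16 and 0.20, and without replicate 2 of siLuc in rapamycin that of the small subunit became 0.20.

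Rps20 had the highest interaction value of the countable members above 1 CPM. It was at 1771, 1677 and 1614 CPM with siLuc in ethanol and at 2102, 2378 and 2244 CPM in rapamycin, next to 1819, 1758 and 1951 CPM and 2792, 3078 and 2876 CPM with siCrebl2. The ethanol groups overlapped and the rapamycin groups did not. The interaction was 0.25 ± 0.08 in edgeR (adjusted p = 0.16). DESeq2 gave 0.28 (adjusted p = 0.033), edgeR without a count filter 0.31 (adjusted p = 0.0043) and edgeR without replicate 2 of siLuc in rapamycin 0.35 (adjusted p = 0.041). Rps29 was next at 0.21 ± 0.08 (edgeR adjusted p = 0.24), and without a count filter it was called (0.27, adjusted p = 0.027), as was Rps24 (0.28, adjusted p = 0.025). Then came Rpl36 at 0.18 ± 0.14 and Rps21 at 0.18 ± 0.10. The lowest were Rpl35 (-0.07 ± 0.14) and Rpl3 (-0.05 ± 0.06).

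The members were set against each other only in pairs of comparisons that share no library. Over the 39 countable members the log2 fold changes of rapamycin with siLuc and with siCrebl2 had a Pearson r of 0.72 and a Spearman rho of 0.80. Those of siCrebl2 in ethanol and in rapamycin had an r of 0.78 and a rho of 0.73. These are descriptions across genes, which share libraries and depth within a comparison and are not independent. The members varied little within a comparison, with an SD of 0.08 (log2) for rapamycin with siLuc and 0.09 with siCrebl2. For siCrebl2 the SD was 0.10 in ethanol and 0.09 in rapamycin.

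**Figure D4:**
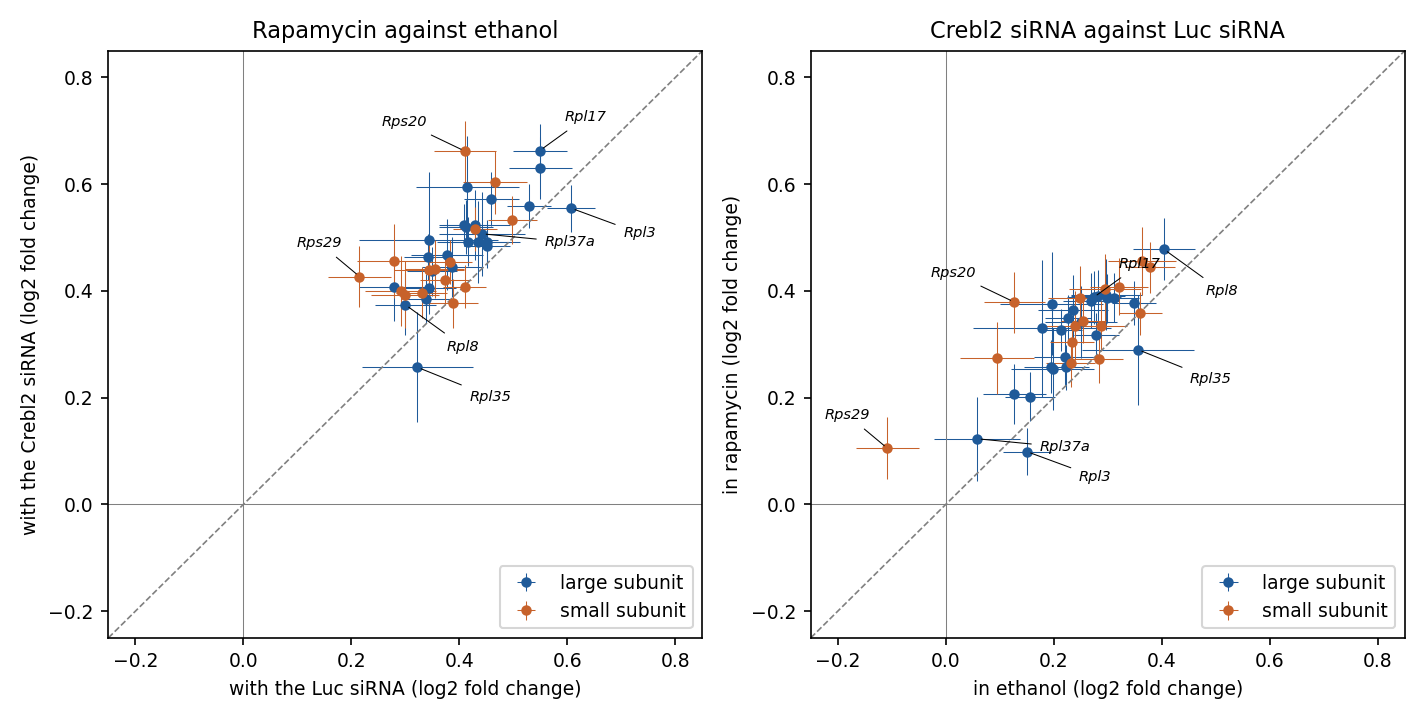
Log2 fold changes of the 39 countable members, with standard errors, in pairs of comparisons that share no library; the dashed line marks equal changes. Left, rapamycin with siLuc (x) and with siCrebl2 (y), r = 0.72; right, siCrebl2 in ethanol (x) and in rapamycin (y), r = 0.78. Most points lie somewhat above the line, with Rps20 and Rps29 farthest above it.

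With both factors together the members reached their highest level. The mean was lowest with siLuc in ethanol and highest with siCrebl2 in rapamycin for 38 of the 39 countable members, which was so for 11.2% of all tested genes. The exception was Rps29, whose lowest mean was with siCrebl2 in ethanol. Relative to siLuc in ethanol, the level with both was a median of 1.66-fold higher, from 1.25-fold for Rps29 to 1.91-fold for Rpl17. Large-subunit members had a median of 1.66-fold and small-subunit members one of 1.69-fold. Rpl17 was at 1221, 1211 and 1218 CPM in the first group and at 2212, 2392 and 2384 CPM in the last.

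Some features that the rule did not use were found in part of the countable members. Genes for small nucleolar RNAs, which guide the modification of ribosomal RNA, lie inside 19 of the 39 (13 large, 6 small), such as the 5 in Rpl4 and the 3 in Rpsa. Called higher were 19 of these 19 in each rapamycin comparison and 17 of 19 in each siRNA comparison. Of the 21 countable members without such a gene, Rps27rt among them, 20 and 19 were called higher with rapamycin and 14 and 18 with the siRNA. Over all tested genes 19.5% and 19.7% were called higher with rapamycin, and 21.4% and 16.3% with the siRNA in ethanol and in rapamycin. How many of all genes hold such a gene was not counted. Medians for rapamycin with siLuc were 0.39 in each of the 2 sets. In 5 members fewer than 30% of the 50-base words occur in other transcripts (Rpl4, Rpl8, Rpl39, Rps20 and Rps21). All 5 were called higher with rapamycin under either siRNA and with siCrebl2 in rapamycin, and 3 of them with siCrebl2 in ethanol. The -ps pseudogenes had a summed level of 106 ± 7.7, 125 ± 9.7, 117 ± 7.3 and 149 ± 10.4 CPM (SD, n = 3) for siLuc in ethanol, siLuc in rapamycin, siCrebl2 in ethanol and siCrebl2 in rapamycin.

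The partly countable members hold fewer reads, and they were called in both directions. Of the 41, 6 had a mean count of at least 1000: Rpl13a, Rpl15, Rpl24, Rpl29, Rps3 and Rps24. Rps3, at the mRNA entry, was at 182, 183 and 171 CPM with siLuc in ethanol and 234, 224 and 220 CPM in rapamycin, and at 220, 192 and 228 CPM and 276, 313 and 296 CPM with siCrebl2. It rose in all 4 comparisons, as did Rpl13a, Rpl24 and Rpl29. Of the Rpl29 reads 99.9% were on a transcript with 0 bases of its own, so its countable share does not account for them. Rps24, a protein whose loss of function is known in Diamond-Blackfan anaemia, rose with siCrebl2 in rapamycin (0.33 ± 0.09) and with rapamycin under siCrebl2 (0.39 ± 0.09). Without replicate 2 of siLuc in ethanol, its library at 196 CPM, Rps24 was also called for siCrebl2 in ethanol (0.25) and for rapamycin under siLuc (0.30). Rpl15 was called in no comparison, with levels between 91.4 and 134 CPM, and its values for siCrebl2 were -0.10 ± 0.10 in ethanol and -0.16 ± 0.09 in rapamycin. For rapamycin Rpl15 had 0.22 ± 0.09 under siLuc, a value called without replicate 2 of siLuc in ethanol (0.29) or of siCrebl2 in ethanol (0.22), and 0.17 ± 0.09 under siCrebl2, called without replicate 2 of siCrebl2 in ethanol (0.29).

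Another 22 partly countable members were tested with a mean count under 1000. Of these, 3 were called higher and 3 lower with rapamycin under siLuc (median -0.07), 3 and 4 under siCrebl2 (median -0.06), and 5 higher and 0 lower with siCrebl2 in ethanol and in rapamycin. Over all tested genes 19.5% were higher and 21.6% lower with rapamycin under siLuc, 19.7% and 25.6% under siCrebl2, 21.4% and 17% with siCrebl2 in ethanol and 16.3% and 16.8% in rapamycin. The rapamycin counts of these 22 were near or below those shares. Of the Rpl27 reads 98.9% were on 1 transcript, counted over 266 bases of its own. The transcript annotated as principal for Rpl27 had 55 reads. Fau, Rps27 and Rpl34 had 0 reads on theirs, while Rpl31 and Rps14 had 91.5% and 77.0% on theirs. In these counts Rpl27 fell with rapamycin. It was at 10.9, 8.92 and 8.52 CPM in ethanol and 5.35, 7.89 and 6.77 CPM in rapamycin with siLuc, and at 16.5, 12.7 and 18.3 against 9.91, 11.3 and 9.88 CPM with siCrebl2. Neither pair of groups overlapped, with values of -0.50 ± 0.15 and -0.61 ± 0.14, and the first call was lost without replicate 1 of siLuc in ethanol (-0.38) or in rapamycin (-0.39). Rpl27 rose with siCrebl2 by 0.75 ± 0.14 in ethanol and 0.63 ± 0.15 in rapamycin.

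The other falls with rapamycin were those of Rpl30 under siLuc (-0.54 ± 0.18), Rpl18 (-0.40 ± 0.13) and Rpl34 (-0.43 ± 0.14) under siCrebl2, and Rplp2 under both. For Rpl30 the fall was in the principal transcript, with 73.8% of its reads (mean 3.93 to 2.39 CPM). Its other counted transcript was at 0.91 and 0.92 CPM. For Rpl18 the fall was in a transcript with 66.0% of its reads (3.11 to 2.04 CPM), while the principal one was at 1.17 and 1.19 CPM. Rplp2, the third stalk protein, had 237 reads in all 12 libraries, at 0.19 to 0.86 CPM, with values of -0.95 ± 0.34 and -0.82 ± 0.32. DESeq2 called neither (adjusted p = 0.069 and 0.12), nor did the fit with the replicate block (0.053 and 0.068), and leaving out 1 library ended the first call for 4 and the second for 8 of the 12 libraries. The values without replicate 1 of the respective rapamycin group were -0.74 and -0.49. The count of 3 falls under siLuc became 0 without replicate 1 of siLuc in rapamycin and 1 without replicate 3 of that group or replicate 1 of siLuc in ethanol. The count of 4 under siCrebl2 became 1 without replicate 3 of siCrebl2 in rapamycin and 2 without replicate 1 of that group or replicate 3 of siCrebl2 in ethanol. The rises were those of Fau, whose protein is made fused to a ubiquitin-like one (0.46 ± 0.16 and 0.71 ± 0.16), Rpl31 (0.31 ± 0.09 and 0.23 ± 0.09), Rps27 under siLuc (0.54 ± 0.18) and Rps14 under siCrebl2 (0.76 ± 0.19). The call of Fau under siLuc was lost in 5 of the 12 fits without 1 library, with the lowest value, 0.22, without replicate 2 of siLuc in rapamycin. That of Rps27 was lost in 3, with the lowest value, 0.36, without replicate 2 of siLuc in ethanol, and also in DESeq2 (adjusted p = 0.06), without a count filter (0.065) and in the fit of only the groups compared (0.05). Rpl31 lost its call under siLuc without replicate 1 of the rapamycin group (0.20) and its call under siCrebl2 in 3 fits, with the lowest value, 0.17, without replicate 1 of the ethanol group, and with the replicate block (adjusted p = 0.063). Rpl28 rose with siCrebl2, from 7.26, 6.28 and 6.63 to 11.1, 9.03 and 12.6 CPM in ethanol (0.70 ± 0.11). With Rpl27 and Rpl28, the members that rose with siCrebl2 in ethanol were Rpl34 (0.57 ± 0.14), Rpl35a (0.99 ± 0.31) and Rps9 (0.39 ± 0.13), and in rapamycin Rpl34 (0.41 ± 0.15), Rps9 (0.45 ± 0.13) and Rps14 (0.57 ± 0.18). Rps2, at the mRNA entry beside Rps3, had 120 reads, at 0.11 to 0.46 CPM, and was called in no comparison. Other members called in no comparison included Rpl9, Rpl21, Rpl32, Rpl36al, Rps13, Rps15 and Rps19.

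Counted over the 28 partly countable members that were tested, 7 rose and 3 fell with rapamycin under siLuc. Over all tested genes 19.5% rose and 21.6% fell. The set of 28 is one that passed a filter on low values. The other 13 members were not tested. They included Rpl10, Rpl19, Rpl22, Rpl26, Rpl38, Rpl41, Rps10, Rps15a, Rps18, Rps27a, Rps27l and Rps28, and had 0 reads (Rpl38) to 92 reads (Rpl26) in all 12 libraries and at most 41.7% countable bases. Rpl22 had 32 reads and 0.73% countable bases, and Rpl41, the shortest ribosomal protein, had 45 reads. Rps27a, made as a fusion with ubiquitin, had 68 reads, and Rps27l, a paralogue of Rps27, had 50 reads. Nothing follows from these levels about how abundant the mRNAs were.

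**Figure D5:**
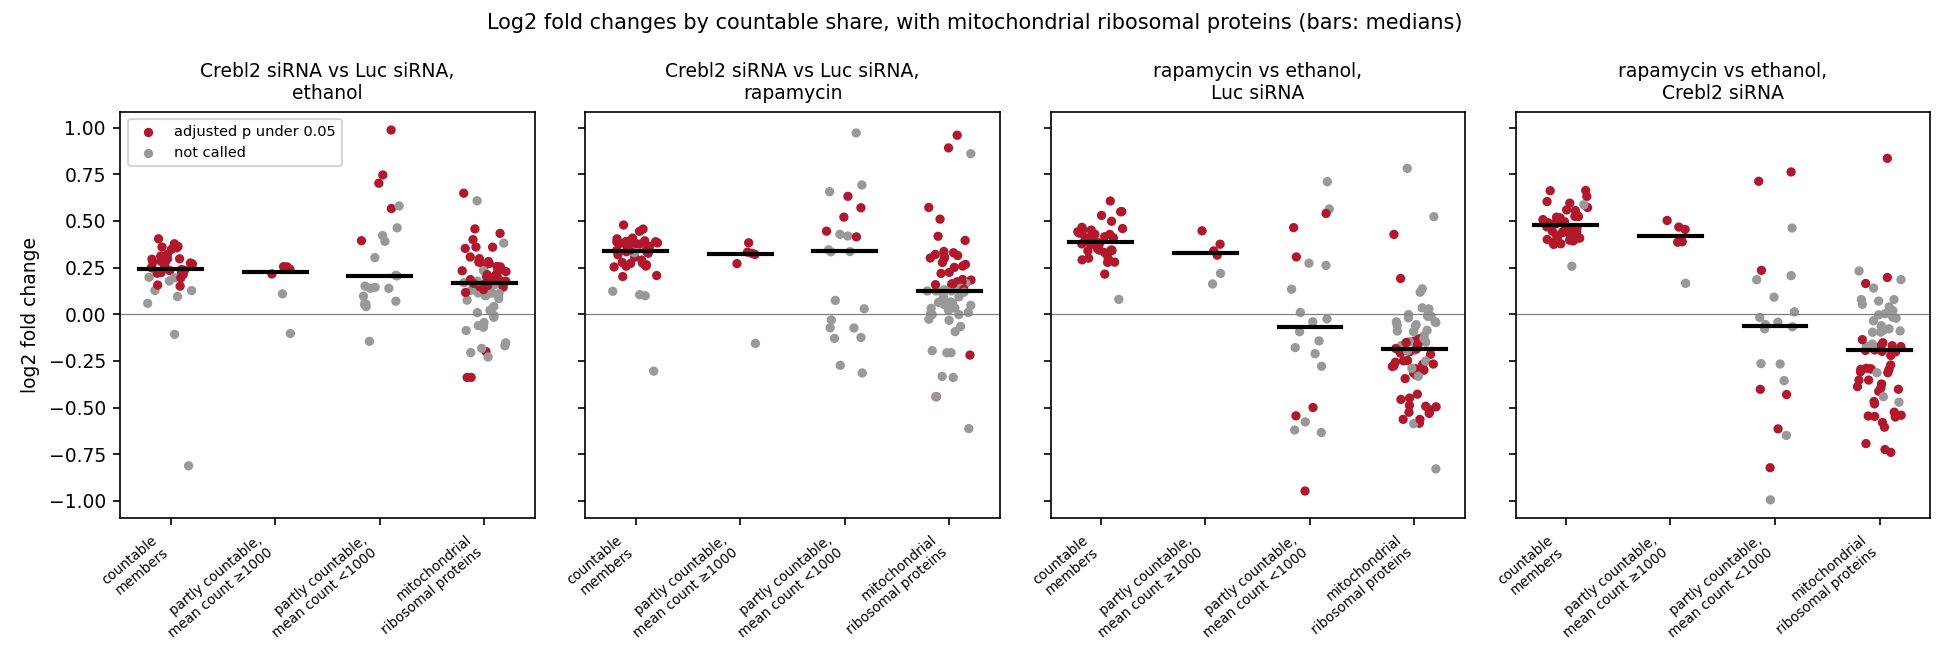
Log2 fold change in each of the 4 comparisons for the 40 countable members, the 6 partly countable members with a mean count of at least 1000, the 22 tested ones below that, and 69 mitochondrial ribosomal proteins. Points are genes, red where called, and bars are medians; the medians of the first 2 classes lie above 0 in all 4 panels, and the mitochondrial proteins lie mostly below 0 with rapamycin (medians -0.19 and -0.19).

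Related genes outside the list were read from lists chosen with earlier results of these data known. Rack1, a scaffold on the small subunit that is a ribosomal protein under another name, was at 2585, 2559 and 2537 CPM with siLuc in ethanol and at 3594, 3798 and 3445 CPM in rapamycin. In siCrebl2 cells it was at 3080, 2905 and 3140 CPM and at 4432, 4906 and 4736 CPM. It rose in all 4 comparisons and lay within the range of the members, at 0.50 ± 0.05 for rapamycin with siLuc and 0.25 ± 0.05 for siCrebl2 in ethanol. Of the 5 paralogues left out by the rule, Rpl7l1, a nucleolar relative of Rpl7, was tested. It was at 235, 232 and 231 CPM with siLuc in ethanol and fell to 183, 177 and 175 CPM in rapamycin, while Rpl7 rose from 2049, 2082 and 2047 to 2885, 2869 and 2688 CPM. Rpl7l1 rose with siCrebl2 in ethanol to 314, 307 and 316 CPM. The other 4 paralogues had 1 to 3 reads.

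Of 16 other translation genes with known TOP mRNAs 15 were tested, and 9 rose and 0 fell with rapamycin under siLuc (median 0.34), 10 and 0 under siCrebl2 (median 0.53), where 19.5% and 19.7% of all tested genes rose. In siCrebl2 cells 8 rose and 1 fell in ethanol and 10 rose and 1 fell in rapamycin, the fall being that of Naca, where 21.4% and 16.3% of all tested genes rose. Naca had 87.9% countable bases and a mean of 4.29 CPM. These counts pool countable and partly countable genes. Of the 9 with at least 90% countable bases, 8 rose and 0 fell with rapamycin under each siRNA (medians 0.53 with siLuc and 0.69 with siCrebl2). With siCrebl2, 5 of these 9 rose in ethanol and 7 in rapamycin, and 0 fell. Eef2, the translocation factor, was at 7275, 6680 and 7082 CPM with siLuc in ethanol and at 12859, 13919 and 12837 CPM in rapamycin. At 0.91 ± 0.05 its change was above that of every countable member. Eef1a1 changed by 0.57 ± 0.04, Eif4b by 0.77 ± 0.04 and Pabpc1 by 0.46 ± 0.04 in the same comparison. Among 11 regulators of TOP mRNAs and of S6, 10 were tested, and their counts were near or below the shares of all tested genes except for the 5 falls with rapamycin under siCrebl2. With siCrebl2 in ethanol 2 rose (Eif4ebp2 and Rps6kb1) and 1 fell (Mtor, -0.29 ± 0.08), and in rapamycin 2 fell (Mtor and Tia1). Rapamycin raised 1 (Mtor, 0.25 ± 0.08) and lowered 1 (Tial1) under siLuc, and lowered 5 under siCrebl2 (Eif4ebp2, Rps6kb1, Rptor, Tia1 and Tial1). Larp1 had 1 read in all libraries and was not tested. It had 0.17% countable bases, so nothing follows from this about the abundance of its mRNA. Tia1 and Tial1 were also only partly countable (27.3% and 38.5%).

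The mitochondrial ribosomal proteins, which make up the separate ribosome of the mitochondrion, were more often lower than higher with rapamycin. Of 78, 69 were tested, and rapamycin raised 2 and lowered 35 under siLuc (median -0.19) and raised 3 and lowered 39 under siCrebl2 (median -0.19), where 21.6% and 25.6% of all tested genes fell. The other 32 and 27 were not called. The siRNA against Crebl2 raised 37 and lowered 3 in ethanol (median 0.17) and raised 27 and lowered 2 in rapamycin (median 0.12). Over all tested genes 21.4% rose and 17% fell in ethanol, and 16.3% rose and 16.8% fell in rapamycin. The difference between these genes and the cytosolic members was not tested as a set.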

How the data were processed

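The authors deposited 1 file per library of raw read counts for Ensembl transcripts, whole numbers without scaling. Libraries came from total RNA with a stranded kit, per the labels' protocols. Trim Galore, TopHat and HTSeq, without versions, and the builds mm9 and GRCm38 are named in the submitters' processing notes. Strand setting, annotation and the treatment of reads with several matches are not given in the sources used here. Of 58611 transcripts 58264 matched GENCODE M21 on GRCm38 (99.41%). The other 347, with 0.038% of the reads, were left out, and counts were summed per gene. Library totals were 33389274 to 42874879 counts assigned to a gene.

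Genes were filtered by group at a minimum count of 10, scaled with TMM factors and fitted in edgeR 4.0.16 (R 4.3.3), with 4 group means in one fit over all 13247 tested genes and a quasi-likelihood F test per contrast, with Benjamini-Hochberg adjustment. The common biological coefficient of variation was 6.9%. Standard errors are the log2 fold change divided by the root of F. CPM are edgeR values after TMM scaling. The script was tested on simulated data. Promoter windows of 300 bases came from a RefSeq table. DESeq2 1.42.0, RLE scaling, TMM without the members, other filters, a replicate block, only the groups compared, the most counted transcript of a gene, only countable members, and leaving out each library were alternatives. No interval is given for shares of counts, and the SD over libraries stands as their error.

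The members and lists were chosen with earlier results of these data known. Members named in any case were fixed by role (stalk proteins, Rpl3, Rpl4, Rpl5, Rpl11, Rpl22, Rpl41, Rpsa, Rps2, Rps3, Rps6, Rps27 and its relatives, Fau). Others were the 3 highest and 3 lowest changes of each subunit at a mean of at least 5 CPM, 2 each for the interaction, and the 3 highest levels per kilobase. Further members are named once to account for them. Some members are not reported by name here.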

Additional observations from a re-analysis of the deposited data

How the results depend on the processing

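Counts of members called higher stayed within 38 to 42 for siCrebl2 in ethanol, 41 to 51 in rapamycin, 42 to 48 for rapamycin with siLuc and 45 to 47 with siCrebl2 when each library was left out in turn. Under the 8 other fits of all members they were 39 to 40, 43 to 49, 44 to 48 and 45 to 49. Members lower were 0 to 1 for siCrebl2 in ethanol and 0 in rapamycin, 0 to 3 for rapamycin with siLuc and 1 to 4 with siCrebl2 with a library left out. Among members with at least 90% countable bases, 0 were lower with rapamycin under either siRNA. Without a count filter 1 member was lower for siCrebl2 in ethanol and 4 were higher in the interaction, where DESeq2 called 1 and leaving out a library 0 to 1. The cause was not tested. The geometric mean per member moved the large-to-small ratio, which was weighted differently by construction, to 0.951, 0.984, 0.950 and 0.968 (siLuc in ethanol and rapamycin, siCrebl2 in ethanol and rapamycin). Of 1435 values of named members under other settings and 2040 with a library left out, 0 changed sign while called. The setting of only countable members takes its values from the main fit, so its part of the 1435 could not change. The median of all tested genes stayed between -0.04 and 0.04.

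The replicate numbers are not stated to pair libraries. Deviations of same-numbered libraries from their group means had correlations of -0.29 to 0.11 over genes, and those of differently numbered libraries -0.32 to 0.37. No pairing by number was visible in these values. They cannot exclude pairing, since the deviations within a group of 3 sum to 0. With the replicate block 40, 43, 45 and 45 members were higher and 0, 0, 2 and 3 lower in the 4 comparisons, and 0 in the interaction. The fit of only the groups compared was run for the 4 pairwise comparisons and not for the interaction. Most partly countable members hold few reads, and whether depth limits their calls was not tested.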
